A study of Homo sapiens with 11 samples.

Results

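In MDA-MB-231 cells, 2377 of the 25318 intervals of H4K20me3 called in cells without the mdig protein (KO) lay where no H4K20me3 had been called in cells with normal mdig (WT), where neither genotype had H3K9me3 and where KO had no H3K4me3. The members were chosen from the lists themselves: an H4K20me3 KO interval on chromosomes 1 to 22 or X was kept when not 1 bp of it overlapped an H4K20me3 WT interval, an H3K9me3 interval of KO or WT, or an H3K4me3 KO interval. They are called the unmarked gains below, a name that refers to H3K9me3 and to H3K4me3 of KO alone, and they covered 12.8 Mb, 8.57% of the H4K20me3 KO length. The study used chromatin immunoprecipitation and sequencing (ChIP-seq) in MDA-MB-231, an established line of human triple-negative breast cancer, to set cells lacking mdig beside cells that have it. There were 5 antibodies, against H4K20me3, H3K9me3, H3K4me3, H3K36me3 and mdig itself (the antibody named MINA), and each was used on 1 KO and 1 WT chromatin sample, which makes 10 libraries without replicates. KO cells, per the labels' protocols, came from CRISPR-Cas9 work and make no mdig. WT cells are also listed there as a product of the CRISPR-Cas9 work, with normal mdig protein, and both were grown with blasticidin. Whether either is a single clone is not given in the sources used here, so a difference between the genotypes and a difference between a pair of cell populations or libraries cannot be told apart.

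H4K20me3 is laid down by the methyltransferases KMT5B and KMT5C and is best known from constitutive heterochromatin. In mouse cells these enzymes are brought there by HP1 proteins that bind H3K9me3, so the mark is commonly found together with H3K9me3. H3K4me3 marks active promoters and H3K36me3 is found along the transcribed part of active genes. Mdig, also named MINA53 or RIOX2, is an oxygenase with a JmjC domain, a fold shared with many histone demethylases.

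The deposited lists give the chromosome, start and end of each enriched interval on hg19 and nothing on its height, and the read depth is unknown. No annotation of hg19 was used here, so regions are named by position and no gene is assigned. The lists held between 7859 intervals (MINA KO) and 53375 intervals (H3K9me3 KO), with 25318 for H4K20me3 KO and 8539 for H4K20me3 WT. An interval missing from a list is one that was not called there, which does not show that the mark was absent. No test was run, with 1 library per antibody and genotype. Shares are given with 95% Wilson confidence intervals, which cover counting error only and treat neighbouring intervals as independent.

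The rule removed intervals in steps that show where the unmarked gains sit within the KO list. Of all H4K20me3 KO intervals, 80.4% (20357) had no H4K20me3 WT interval on them. After those on H3K9me3 of WT were set aside 7963 remained, after those on H3K9me3 of KO 5310, and after those on H3K4me3 of KO 2377. The other gains were 12394 intervals on H3K9me3 WT, 2653 on H3K9me3 of KO but not of WT, and 2933 on H3K4me3 KO with no H3K9me3. The remaining 4961 intervals overlapped H4K20me3 WT and are called kept. A member could therefore not carry H3K9me3 or H3K4me3 KO, and that absence is the choice and not a result. At the edge of the rule, 28 members touched an interval of the rule's lists with a gap of 0 bp, at a median width of 3.1 kb (1.4 to 12.6 kb). Just outside it, 26 intervals were dropped for an overlap of a single 200-bp window, and their median width was 3.2 kb (0.2 to 6.4 kb).

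The unmarked gains were mostly short. Their median width was 4.0 kb, with quartiles of 2.4 and 6.6 kb, 10% of them at or below 1.6 kb and 10% at or above 10.6 kb, and a range of 0.4 to 72.8 kb. The gains on H3K4me3 KO had a median of 2.8 kb, as had the gains on H3K9me3 of KO only, while the gains on H3K9me3 WT had a median of 4.0 kb and the kept intervals 5.6 kb. Intervals of at least 10 kb made up 11.9% of the unmarked gains (284), against 7.19% of the gains on H3K4me3 KO, 4.45% of those on H3K9me3 of KO only, 14.3% of those on H3K9me3 WT and 25.3% of the kept intervals. These 284 wide members held 34.4% of the members' length (4.40 Mb), and 378 members (15.9%) were narrower than 2 kb.

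**Figure D1:**
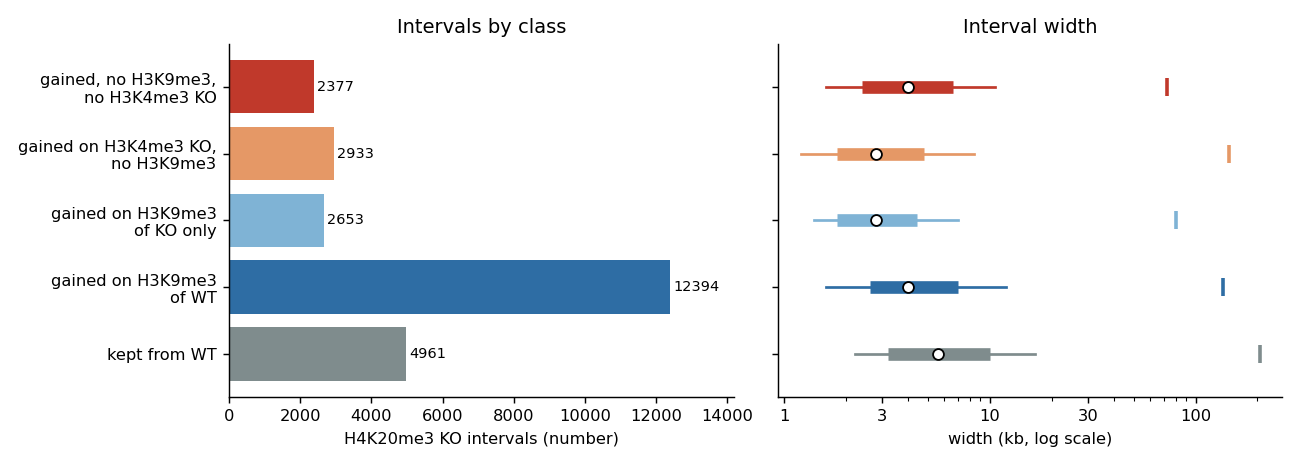
The left panel shows the number of H4K20me3 KO intervals in each class, and the right panel their widths in kb on a log scale (circle, median; thick bar, quartiles; thin line, all but the outer 10% at each end; tick, widest). The 2377 unmarked gains in the top row have a median of 4.0 kb, equal to that of the gains on H3K9me3 WT and below the 5.6 kb of kept intervals.

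The 10 widest members lay on chromosomes 5, 6 and 20. The widest was chr20:48015401-48088200 (72.8 kb), which overlapped none of the other lists. The nearest H3K9me3 was 52.0 kb away in KO and 21.6 kb away in WT, and the nearest H3K4me3 KO interval was 10.2 kb away. Next came chr6:40430001-40479600 at 49.6 kb, also outside every other list. It was 1 of 4 wide members in a short part of chromosome 6, with chr6:40482601-40520000 (37.4 kb), chr6:40615001-40651200 (36.2 kb) and chr6:40695601-40734000 (38.4 kb). All 4 lay far from the nearest H4K20me3 WT interval, at 844 to 1098 kb, and had no H3K36me3, no MINA and no H3K4me3 WT on them.

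The other 5 of the widest members differed in what lay on or near them. On chromosome 20, chr20:31882801-31922200 (39.4 kb) was 13.0 kb from the nearest H3K36me3 KO interval, and chr20:57342801-57376600 (33.8 kb) was 0.4 kb from H3K9me3 WT, just short of being dropped by the rule. The member chr6:37536801-37573600 (36.8 kb) carried MINA over 27.8 kb in KO and 19.2 kb in WT. A little before its start, chr6:37476401-37508000 (31.6 kb) carried MINA KO over 5.0 kb, and an H4K20me3 WT interval lay 1.4 kb from it. The remaining one, chr5:176193001-176228000 (35.0 kb), carried MINA over 13.4 kb in KO and none in WT.

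H3K36me3 touched few of the unmarked gains. In KO 193 members (8.12%, interval 7.09 to 9.29%) overlapped H3K36me3, against 166 members in WT (6.98%, interval 6.03 to 8.08%). Over all H4K20me3 KO intervals the share was 11.0% for H3K36me3 KO and 9.33% for H3K36me3 WT. The rule bears on this comparison, since it removed the gains on H3K4me3 KO. Those held 1324 of the 2780 intervals on H3K36me3 KO and 1061 of the 2361 on H3K36me3 WT. The members' shares stood between those of the gains on H3K4me3 KO (45.1% on H3K36me3 KO and 36.2% on H3K36me3 WT) and those of the gains on H3K9me3 WT (2.08% on H3K36me3 KO and 1.66% on H3K36me3 WT). A member that touched H3K36me3 was usually inside it: 150 of the 193 lay wholly within H3K36me3 KO, and 133 of the 166 wholly within H3K36me3 WT. Widths were close, as members on and off H3K36me3 KO had medians of 4.2 and 4.0 kb.

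Most members on H3K36me3 were on it in both genotypes. The lists of KO and WT both covered 153 members (6.44%), the KO list alone 40 (1.68%), the WT list alone 13 (0.547%) and neither 2171 (91.3%). Over all H4K20me3 KO intervals the KO list alone covered 2.55% and the WT list alone 0.893%. The number of members on H3K36me3 was 1.16 times as high with the KO list as with the WT list. That ratio was 1.18 over all H4K20me3 KO intervals, and the H3K36me3 lists themselves held 1.02 times as many intervals in KO as in WT. From the side of H3K36me3 the members are rare: 178 of its 17800 KO intervals (1.00%) and 151 of its 17507 WT intervals (0.863%) touched a member.

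The widest members on H3K36me3 in both genotypes also carried MINA in WT. The member chr1:36807201-36828200 (21.0 kb) lay wholly on H3K36me3 KO and WT and carried no MINA in KO and MINA over 11.4 kb in WT, and its nearest H3K9me3 was 592 kb away in KO and 809 kb away in WT. Likewise wholly on H3K36me3 of KO and WT, chr20:36756401-36773600 (17.2 kb) carried no MINA in KO and MINA over 9.4 kb in WT. The same held for chr22:29723201-29739400 (16.2 kb), with no MINA in KO and MINA over 15.4 kb in WT.

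Members on H3K36me3 of KO alone were led by chr20:42692201-42721800 (29.6 kb), with 10.6 kb on H3K36me3 KO. Behind it came chr9:97546401-97565000 (18.6 kb, 13.6 kb on H3K36me3 KO) and chr7:131817801-131835400 (17.6 kb, all of it on H3K36me3 KO). In the last of these the nearest H3K4me3 was 146 kb away in KO and 477 kb away in WT. The members on H3K36me3 of WT alone were narrower or barely overlapped: chr6:16340001-16350000 (10.0 kb) had 1.2 kb on it, chr22:30625001-30631400 (6.4 kb) had 0.8 kb, and chr12:121468401-121473800 (5.4 kb) was covered in full.

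MINA was on more of the members in WT than in KO. In KO 130 members (5.47%, interval 4.63 to 6.46%) overlapped the MINA list, against 283 in WT (11.9%, interval 10.7 to 13.3%). Inside long stretches where the KO lists ran high, described further on, the order was the other way round, with 8.31% on MINA KO and 4.85% on MINA WT. Since the KO cells make no mdig per the labels, the MINA KO list is what the antibody and the caller gave in cells without the protein. Over all H4K20me3 KO intervals 9.90% overlapped MINA KO and 17.2% MINA WT, so the members' shares were below both. The rule bears on this comparison, since it removed the gains on H3K4me3 KO. Those held 1555 of the 2507 intervals on MINA KO and 2296 of the 4346 on MINA WT. Among the other gains those on H3K4me3 KO had 53.0% on MINA KO and 78.3% on MINA WT, and those on H3K9me3 WT had 1.53% on MINA KO and 2.69% on MINA WT. The lists differ in size, with 7859 MINA intervals in KO and 16353 in WT.

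Taken over all members, the lower number in KO was close to that of the MINA lists as a whole. The number of members on MINA in KO was 0.459 times that in WT, the MINA lists themselves had a ratio of 0.481, and all H4K20me3 KO intervals had a ratio of 0.577. The members' ratio joins unlike parts of the genome. Inside the long stretches 96 members were on MINA KO and 56 on MINA WT, and outside them 34 and 227. The covered length of the MINA lists, a different measure, had KO over WT ratios of 0.958 inside and 0.225 outside. MINA of both genotypes lay on 39 members (1.64%), MINA of KO alone on 91 (3.83%), MINA of WT alone on 244 (10.3%) and neither on 2003 (84.3%). Over all H4K20me3 KO intervals MINA of KO alone was on 1.61% and MINA of WT alone on 8.87%. Of the 130 members on MINA KO, 91 thus had no MINA in WT, where 407 of the 2507 H4K20me3 KO intervals on MINA KO were of that kind. The classes differed in this, and the largest of them on MINA KO, the gains on H3K4me3 KO, was removed by the rule. Intervals of that kind were 123 of its 1555. They were 105 of 190 among gains on H3K9me3 WT, 24 of 67 among gains on H3K9me3 of KO only and 64 of 565 among kept intervals. Seen from MINA, 133 of its KO intervals (1.69%) and 297 of its WT intervals (1.82%) touched a member.

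**Figure D2:**
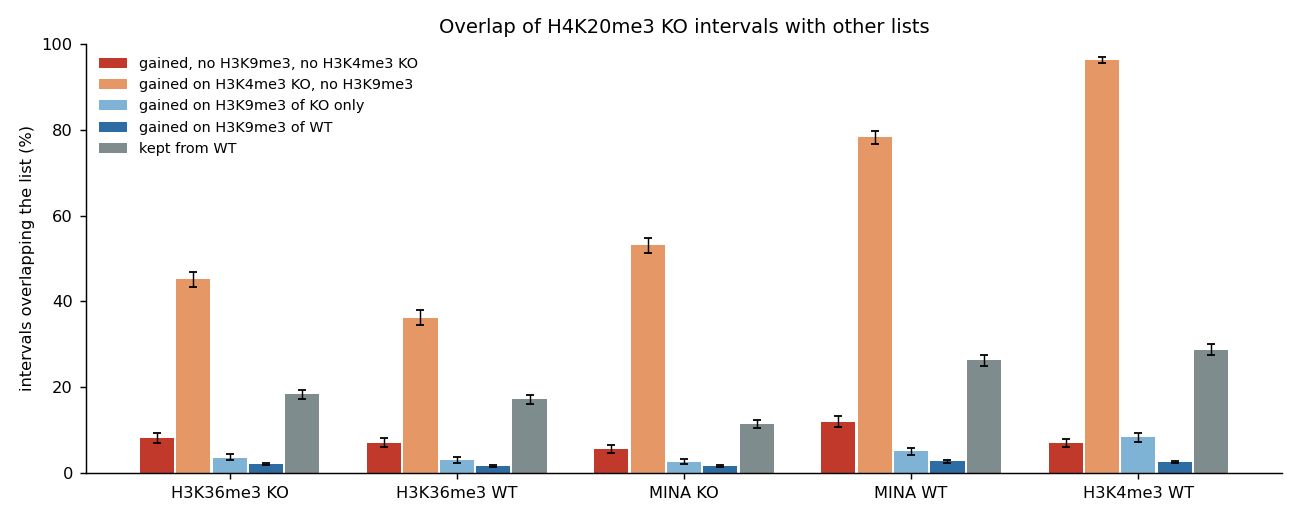
Bars give the percentage of intervals in each class of H4K20me3 KO intervals that overlapped each other list by at least 1 bp, with 95% Wilson intervals as error bars. The unmarked gains (red) have 8.12% on H3K36me3 KO and 6.98% on H3K36me3 WT, and 5.47% on MINA KO and 11.9% on MINA WT, between the high bars of gains on H3K4me3 KO and the low bars of gains on H3K9me3 WT.

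Members on MINA were wider than the rest. Their median was 7.1 kb on MINA KO against 3.8 kb off it, and 5.8 kb on MINA WT against 3.8 kb off it. MINA of both genotypes lay on members with a median of 9.0 kb, and members with no MINA had a median of 3.6 kb. By width, MINA KO was on 1.32% of the members under 2 kb, 3.04% of those of 2 to 5 kb, 7.09% of those of 5 to 10 kb and 16.2% of those of at least 10 kb. For MINA WT the 4 shares were 5.29%, 8.56%, 16.9% and 21.5%. The share on H3K36me3 KO moved less over the same widths, with 6.61%, 8.46%, 7.54% and 10.2%. Greater width on MINA was not particular to members. Gains on H3K9me3 WT had medians of 8.6 kb on MINA KO and 4.0 kb off it, and 7.4 and 4.0 kb for MINA WT. For gains on H3K9me3 of KO only they were 5.0 and 2.8 kb for MINA KO, and 5.4 and 2.6 kb for MINA WT. Gains on H3K4me3 KO differed little, with 3.0 and 2.8 kb for MINA KO and 2.8 and 3.0 kb for MINA WT.

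Where MINA lay on a member it covered much of it, with a median of 57.6% of the member's length in KO and 78.2% in WT, and 17 members lay wholly on MINA KO and 80 wholly on MINA WT. The widest members on MINA of both genotypes were chr6:37536801-37573600, described above, and chr7:149498601-149526000 (27.4 kb), which MINA covered over 27.2 kb in KO and 20.4 kb in WT. The next was chr9:139067001-139094200 (27.2 kb), with MINA over 11.0 kb in KO and 6.4 kb in WT. On MINA of KO alone the third widest, after a member on chromosome 5 and a member on chromosome 6 given above, was chr5:175101201-175129000 (27.8 kb) with MINA over 4.4 kb. MINA of WT alone lay on chr14:105030001-105058400 (28.4 kb) over 21.4 kb and on chr12:132832201-132858400 (26.2 kb) over 4.2 kb.

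H3K4me3 of WT was not part of the rule, and 164 members (6.90%, interval 5.95 to 7.99%) overlapped it, against 19.6% of all H4K20me3 KO intervals. The rule bears on this share all the same, because the gains on H3K4me3 KO, which it removed, were on H3K4me3 WT in 96.3% of cases. On these members H3K4me3 was called in WT. Their H4K20me3 call in KO and the missing calls of H3K4me3 KO and H4K20me3 WT are set by the rule. The overlap was small, with a median of 40.8% of the member's length, and 14 members lay wholly on H3K4me3 WT. Among the gains on H3K9me3 WT the share on H3K4me3 WT was 2.55%, and among those on H3K9me3 of KO only it was 8.29%. The widest such members were chr1:226702401-226720400 (18.0 kb, 2.2 kb on H3K4me3 WT), chr6:45402801-45418800 (16 kb, 3.0 kb) and chr15:69327401-69341400 (14.0 kb, 3.4 kb). The member on chromosome 6 was wholly on H3K36me3 of KO and WT. The member on chromosome 15 had H3K36me3 over 3.2 kb in KO and 2.8 kb in WT, and MINA over 4.6 kb in WT.

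In WT the marks tended to meet on the same members. Of the 283 members on MINA WT, 51 (18.0%) were also on H3K36me3 WT, against 115 of the 2094 members off MINA WT (5.49%). On H3K4me3 WT were 62 of the 283 (21.9%), against 102 of the 2094 (4.87%). With the KO lists, H3K36me3 KO was on 13 of the 130 members on MINA KO (10.0%) and on 180 of the 2247 off it (8.01%). Even so, 184 of the 283 members on MINA WT (65.0%) had neither H3K36me3 nor H3K4me3 in WT, and 14 members carried MINA, H3K36me3 and H3K4me3 of WT together. MINA WT and H3K36me3 WT were rarer on members inside the long stretches described further on. Inside and outside, the shares were 4.85% and 18.6% for MINA, and 5.19% and 8.67% for H3K36me3. For H3K4me3 WT they were 3.12% and 10.5%. The rule and the way the stretches were drawn both bear on that difference, so nothing is read from it. The part of the stretches in the meeting of the marks was not tested.

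Of the 2377 members, 1777 (74.8%, interval 73.0 to 76.5%, 8.96 Mb) overlapped none of the 5 lists outside the rule, and their median width was 3.6 kb. That share was close to the 73.5% of all H4K20me3 KO intervals. It stood between 2.11% of the gains on H3K4me3 KO and 87.9% of the gains on H3K9me3 of KO only, and gains on H3K9me3 WT had 94.0%. The other 600 (25.2%) overlapped at least 1 of them and had a median of 5.0 kb. No list of WT, for any antibody, lay on 1895 members (79.7%, 9.88 Mb), of which the rule itself fixes the absence of H4K20me3 WT and H3K9me3 WT. H3K36me3, MINA and H3K4me3 of WT were likewise all missing from 75% of all H4K20me3 KO intervals.

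Members lay nearer to H3K9me3 than gains on H3K4me3 KO did, and nearer to the marks of active genes than gains on H3K9me3 WT did. The median gap from a member to the nearest H3K9me3 was 36.6 kb in KO (quartiles 13.4 and 89.8 kb) and 30.6 kb in WT (9.8 and 83.8 kb). To H3K9me3 of either genotype it was 22.4 kb, with 433 members (18.2%) within 5 kb and 304 (12.8%) more than 100 kb away. For comparison, gains on H3K4me3 KO had median gaps of 61.4 kb to H3K9me3 KO and 54.8 kb to H3K9me3 WT.

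To active marks the members' median gaps were 47.2 kb for H3K4me3 KO, 102.6 kb for H3K36me3 KO and 118.2 kb for H3K36me3 WT, each over the intervals that did not overlap. For gains on H3K9me3 WT the gaps were 360.8 kb to H3K4me3 KO, 560.5 kb to H3K36me3 KO and 557.8 kb to H3K36me3 WT. The nearest MINA was at a median of 113.4 kb in KO and 103.8 kb in WT for members off the list, against 581.2 kb in KO and 527.8 kb in WT for the gains on H3K9me3 WT. The nearest H4K20me3 WT interval was at a median of 143.8 kb from a member.

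The members farthest from any H3K9me3 were of ordinary width. They were chr9:73567601-73573000 (5.4 kb), 919 kb from H3K9me3 in KO and 901 kb from it in WT, chrX:100311201-100313800 (2.6 kb), at 645 kb in KO and 850 kb in WT, and chr1:28669601-28673800 (4.2 kb), at 635.2 kb in KO and 635.4 kb in WT. None carried H3K36me3, MINA or H3K4me3 WT. The last 2 lay 2.8 and 3.2 kb from the nearest H3K4me3 KO interval and 4.8 and 5.2 kb from the nearest H3K36me3 KO interval.

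The 50 kb on either side of a member held more H4K20me3 in KO than the genome did, as did the flanks of other gains. Within 10 kb of members 13.9% of the sequence was covered by H4K20me3 KO, and at 40 to 50 kb 13.2%, against 4.93% of the genome. The flanks within 10 kb held 22% beside gains on H3K9me3 WT, 12.9% beside gains on H3K9me3 of KO only and 5.01% beside gains on H3K4me3 KO. H4K20me3 WT covered 3.47% of the near flanks, against 2.22% of the genome. H3K9me3 covered less than in the genome: 3.67% of the near flanks in KO and 5.49% in WT, against 10.1% (KO) and 8.40% (WT) genome-wide. The rule bears on the near flanks, since H3K9me3 could not touch a member. At 40 to 50 kb H3K9me3 covered 4.88% in KO, below its genome value, and 8.18% in WT, close to its genome value. The flanks of gains on H3K9me3 WT were covered to 55.0% by H3K9me3 KO and to 41.0% by H3K9me3 WT within 10 kb.

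H3K36me3 covered 7.35% of the members' near flanks in KO and 6.50% in WT, and at 40 to 50 kb 13.1% in KO and 11.1% in WT, against 10.8% of the genome in each genotype. MINA covered 2.34% of the near flanks in KO and 5.82% in WT, against 1.18% of the genome in KO and 3.94% in WT. H3K4me3 covered 3.24% of the near flanks in KO and 4.16% in WT, against 3.36% of the genome in KO and 3.98% in WT. The rule bears on these near flanks too, since H3K4me3 KO could not touch a member. At 40 to 50 kb H3K4me3 covered 4.78% in KO and 5.46% in WT, above its genome values. The flanks within 10 kb of gains on H3K4me3 KO held 33.4% H3K36me3 KO, 18.3% MINA WT and 25.2% H3K4me3 KO.

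**Figure D3:**
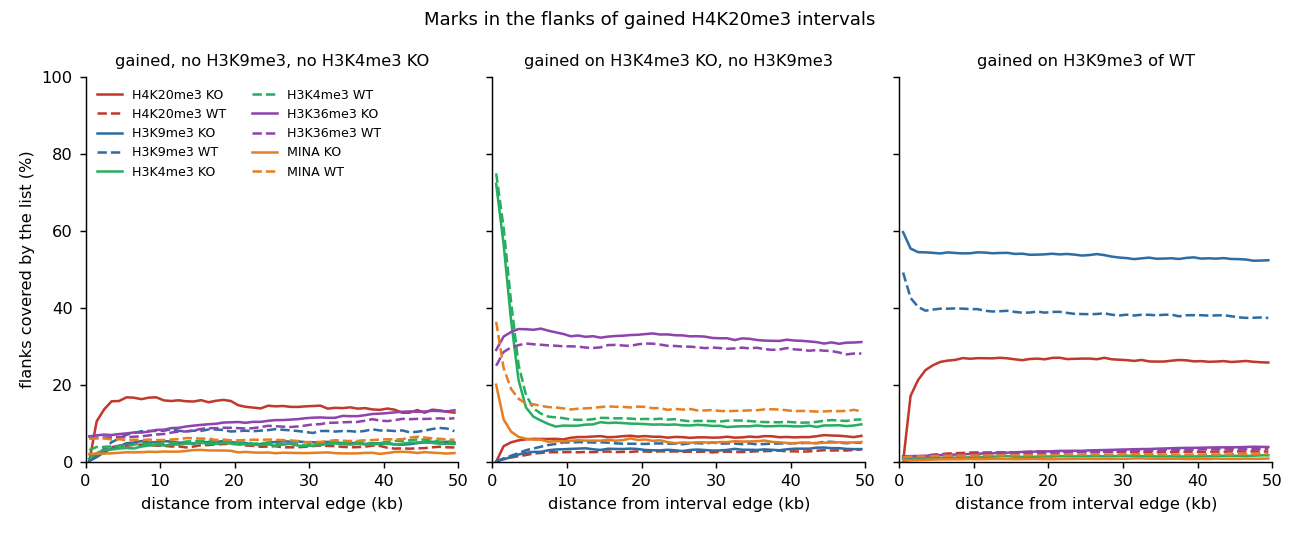
Lines give the percentage of flanking sequence covered by each list at distances of up to 50 kb from the interval edge (solid, KO; dashed, WT), for the unmarked gains (left), gains on H3K4me3 KO (middle) and gains on H3K9me3 WT (right). Beside the unmarked gains H4K20me3 KO covers 13.9% within 10 kb, and by 40 to 50 kb H3K36me3 KO has reached 13.1%, next to 13.2% for H4K20me3 KO, while beside gains on H3K4me3 KO the H3K36me3 and H3K4me3 lines of both genotypes are the highest within 10 kb (25.2 to 33.4%), and beside gains on H3K9me3 WT the H3K9me3 KO line is (55.0%).

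The neighbours of members in the KO list were often other members. The nearest other H4K20me3 KO interval lay at a median of 13.6 kb, and for 804 members (33.8%) it lay within 5 kb. That neighbour was itself a member for 840 (35.3%), whereas members make up 9.39% of the KO list. It was a gain on H3K9me3 WT for 552 (23.2%), a class that makes up 49.0% of the list, a kept interval for 451 (19.0%), a gain on H3K4me3 KO for 380 (16%) and a gain on H3K9me3 of KO only for 154 (6.48%).

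Chained at gaps of up to 50 kb, 1347 members (56.7%) stood alone, 480 (20.2%) formed 240 pairs and 550 (23.1%, interval 21.5 to 24.9%) fell into 128 clusters of at least 3. The share in clusters of at least 3 was 11.1% with a gap of 20 kb, 9.55% with KO intervals within 5 kb merged beforehand, and 12.8% without the raised stretches described further on. There were 70 clusters of 3, 21 of 4 and 14 of 5, and the largest held 21. Members in clusters were wider, with a median of 5.4 kb against 4.4 kb in pairs and 3.4 kb alone. MINA KO was on 10.7% of the members in clusters, 6.25% of those in pairs and 3.04% of those alone, while MINA WT was on 6.55% in clusters, 15.2% in pairs and 12.9% alone. Members in clusters also lay in the raised stretches more often (71.6%, against 54.2% in pairs and 37.2% alone). There MINA KO was on more members than elsewhere and MINA WT on fewer. The part of width and of the stretches in these shares was not tested. H3K36me3 KO was on 7.09% in clusters, 7.50% in pairs and 8.76% alone, and H3K4me3 WT on 3.82% in clusters, 6.46% in pairs and 8.32% alone. Taken over the whole spans of the 128 clusters, H4K20me3 covered 46.5% in KO and 1.71% in WT, a contrast that follows largely from the rule. H3K36me3 covered 5.08% in KO and 3.83% in WT, against 10.8% of the genome in each genotype. MINA covered 4.22% in KO and 3.22% in WT, against 1.18% of the genome in KO and 3.94% in WT. MINA lay in 42 of the 128 spans in KO and in 30 in WT.

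The largest cluster was chr15:77856401-78187600, 331.2 kb with 21 members of 1.4 to 13.0 kb that covered 120.6 kb. No WT list of any antibody had an interval in it. In KO it held 6 MINA intervals (23.6 kb, on 3 members) and 2 H3K9me3 intervals (7.4 kb), and neither H3K4me3 nor H3K36me3. A second cluster of chromosome 15, chr15:74460001-74612600, was similar: its 9 members covered 89.0 kb of 152.6 kb (58.3%), and beside H4K20me3 only MINA KO was present, in 7 intervals over 43.4 kb and on 6 members, with nothing from WT.

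The other clusters with the most members lay among more marks. On chromosome 5, chr5:174029601-174284200 (254.6 kb) had 13 members covering 98.4 kb. H3K9me3 covered 8.0 kb there in KO and 3.2 kb in WT, H3K4me3 10.4 kb in KO and 8.0 kb in WT, and MINA 12.0 kb in KO and 2.8 kb in WT, with no H3K36me3. Before it on the same chromosome, chr5:173069401-173300200 (230.8 kb) had 10 members of 5.2 to 15 kb covering 93.0 kb, with H3K9me3 over 8.2 kb in each genotype and MINA over 7.0 kb in KO and 0.8 kb in WT. The third cluster of chromosome 15, chr15:39421201-39576000 (154.8 kb), had 9 members covering 43.6 kb. It was the single one of the 5 with H4K20me3 in WT (10.6 kb), and it held H3K9me3 over 11.2 kb in KO and 10.4 kb in WT, H3K36me3 over 3.8 kb in KO alone and no MINA.

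By chromosome the members were unevenly spread. They numbered 0.783 per Mb over the span reached by the lists (3034 Mb). Chromosome 15 had 2.69 per Mb (276 members), chromosome 20 2.11 (133) and chromosome 9 1.58 (223), followed by chromosome 7 with 1.48 (235) and chromosome 5 with 1.31 (236). These 5 chromosomes held 1103 members (46.4%) on 21.3% of the span. The fewest per Mb were on chromosomes 18 (0.205, 16 members), 3 (0.308, 61) and 13 (0.339, 39), and chromosome X had 0.368 (57).

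As a share of the H4K20me3 KO intervals of the same chromosome, members made up 23.2% on chromosome 15 (interval 20.9 to 25.7%), 20.7% on chromosome 9 (18.4 to 23.2%) and 13.6% on chromosome 20 (11.6 to 15.9%), against 9.39% in all. The lowest shares were 4.23% on chromosome 19 (3.35 to 5.33%), 5.20% on chromosome 21 (3.36 to 7.99%) and 5.46% on chromosome 14 (4.39 to 6.78%). On chromosome X the share was 6.74% (5.24 to 8.63%). Chromosomes rich in members were not all rich in other gains: chromosome 9 was in place 13 of the chromosomes by other gains per Mb (5.22), and chromosome 15 in place 6 (8.32). Chromosome 19 was in place 1 with 14.2 other gains per Mb and had 1.15 members per Mb. On chromosome 15, where H4K20me3 had 1188 intervals in KO, the WT list held 76.

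**Figure D4:**
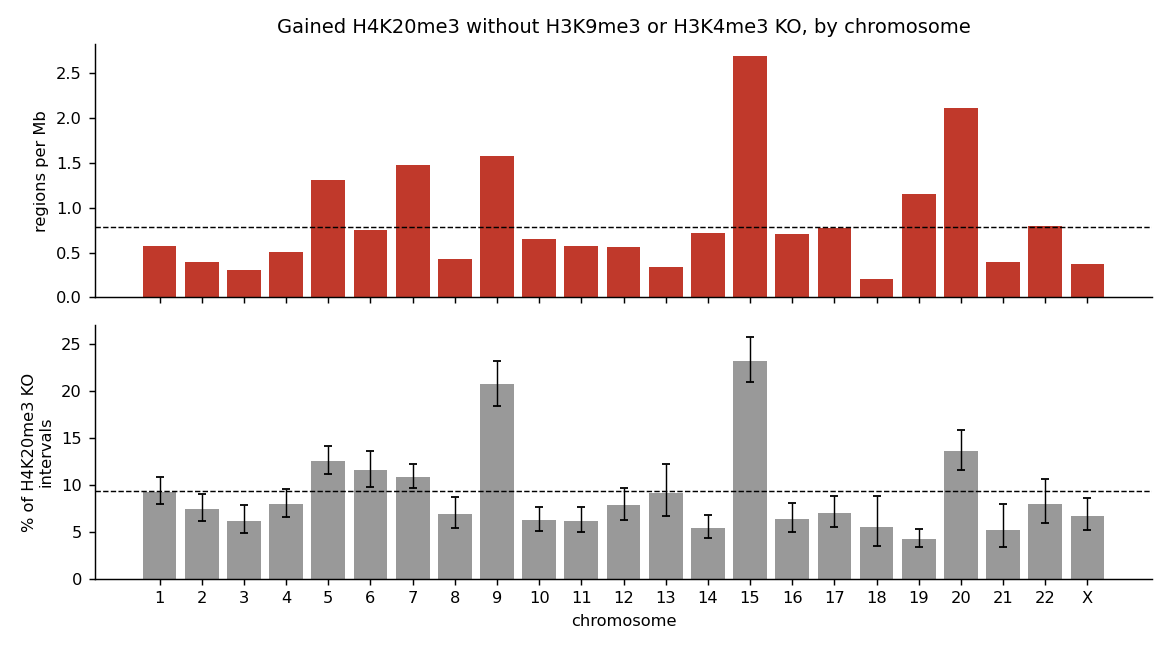
Unmarked gains by chromosome, as number per Mb of span (top) and as a percentage of the H4K20me3 KO intervals of that chromosome with 95% Wilson intervals (bottom); dashed lines mark the values over all chromosomes (0.783 per Mb and 9.39%). Chromosome 15 is highest in both panels, chromosome 20 is second per Mb and chromosome 9 is second by share, while chromosome 19 lies above the line per Mb and lowest by share.

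Widths and overlaps also went with the chromosome. The median width ran from 2.0 kb on chromosome 18 to 6.0 kb on chromosome 20, where 39 of 133 members were at least 10 kb wide. On chromosome 15 MINA was on 11.2% of the members in KO and 2.17% in WT, on chromosome 9 on 9.87% in KO and 9.42% in WT, and on chromosome 20 on 5.26% in KO and 9.02% in WT. Chromosome 16 had 7.81% in KO and 32.8% in WT. On chromosome X 1.75% of the 57 members were on MINA KO and 0 on MINA WT, which allows a share of up to 5.26% by counting error alone. H3K36me3 was on 9.78% of the members of chromosome 15 in KO and 6.52% in WT, against 3.76% in KO and 2.26% in WT on chromosome 20.

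In blocks of 10 Mb, the 10 of 316 with the most members held 455 (19.1%) on 3.30% of the span, and 48 blocks held none. The block at 170 to 180 Mb of chromosome 5 had 81 members, 31.4% of its H4K20me3 KO intervals, and 26 of them were at least 10 kb wide. At 70 to 80 Mb of chromosome 15 there were 75 members, 46.3% of the KO intervals there. At 90 to 100 Mb of chromosome 9 there were 59 (29.6%), at 50 to 60 Mb of chromosome 15 39 (41.1%), and at 130 to 140 Mb of chromosome 9 37 (16.9%).

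This placement went together with long stretches in which the KO lists of all antibodies ran higher against WT than elsewhere. Such stretches were drawn from H3K4me3 alone, by a hidden Markov model with 2 states on the KO over WT covered length in bins of 2 Mb, and the upper state is called raised. There were 10 raised stretches on chromosomes 4, 5, 6, 7, 9, 14, 15 and X, including the whole of chromosome 15, over 696.4 Mb (22.9% of the span). Covered length in KO divided by that in WT, inside and outside them, was 8.59 and 1.70 for H4K20me3, 2.02 and 1.07 for H3K9me3, 1.28 and 0.945 for H3K36me3, 1.05 and 0.802 for H3K4me3, and 0.958 and 0.225 for MINA. The contrast for H3K4me3 follows from how the stretches were drawn. Members were chosen as H4K20me3 KO intervals without H4K20me3 WT, so the H4K20me3 contrast and the members' placement come from the same lists. Copy number of the DNA was not checked in either genotype, since the input library carries no genotype label and was not used. A change in copy number and a gain of the mark cannot be told apart inside these stretches, and the part of the stretches in the members' placement was not tested.

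Inside the raised stretches lay 1155 members (48.6%) at 1.66 per Mb, and outside them 1222 at 0.523 per Mb, a ratio of 3.17. The ratio was 4.72 for gains on H3K9me3 of KO only, 2.04 for gains on H3K4me3 KO, 1.15 for gains on H3K9me3 WT and 0.447 for kept intervals. Members inside had a median of 4.4 kb and those outside 3.6 kb. Of the members in clusters of at least 3, 71.6% were inside, against 54.2% of those in pairs and 37.2% of those alone, and the 5 clusters described above were all inside. Chromosome 20 had no raised stretch, and its 133 members were all outside.

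The overlap with MINA differed between these parts of the genome in opposite ways for the KO and WT lists. The MINA lists as a whole did so too. The stretches, 696.4 Mb of the 3034 Mb span, held 11.46 of the 35.68 Mb of MINA KO and 11.96 of the 119.6 Mb of MINA WT. Inside the stretches, 8.31% of members (interval 6.85 to 10.1%) were on MINA KO and 4.85% (3.75 to 6.24%) on MINA WT. Outside, 2.78% (2.00 to 3.86%) were on MINA KO and 18.6% (16.5 to 20.8%) on MINA WT. For the other gains the shares were 13.8% on MINA KO and 13.7% on MINA WT inside, and 8.29% on MINA KO and 16.2% on MINA WT outside. In numbers, 96 members inside were on MINA KO and 56 on MINA WT, and outside 34 were on MINA KO and 227 on MINA WT.

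H3K36me3 KO was on 7.62% of members inside and 8.59% of those outside, and H3K36me3 WT on 5.19% inside and 8.67% outside. H3K4me3 WT was on 3.12% of members inside and 10.5% of those outside. The stretches were drawn where H3K4me3 KO is long against H3K4me3 WT and members lack H3K4me3 KO, so the choice of both bears on this difference and nothing is read from it. Outside the stretches 105 members were on H3K36me3 KO (interval 7.15 to 10.3%) and 106 on H3K36me3 WT (interval 7.22 to 10.4%). Both shares were read on the same 1222 members, so their intervals do not measure the difference between KO and WT.

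**Figure D5:**
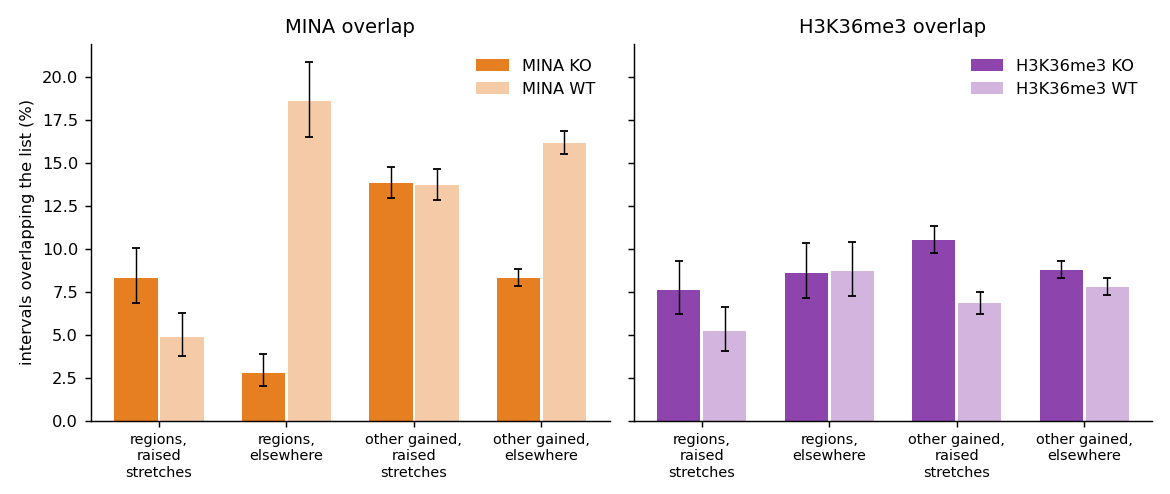
Bars give the percentage of unmarked gains and of the other gains that overlapped MINA (left) and H3K36me3 (right), each for the KO and WT list, inside the raised stretches and elsewhere, with 95% Wilson intervals. Unmarked gains inside the stretches had 8.31% on MINA KO and 4.85% on MINA WT, and elsewhere 2.78% on MINA KO and 18.6% on MINA WT, while the H3K36me3 bars lie closer together.

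A mirror of the rule gives the WT-only intervals of the same kind, taken as H4K20me3 WT intervals with no H4K20me3 KO, no H3K9me3 of either genotype and no H3K4me3 WT. In KO 2377 of 25318 intervals met the rule (9.39%, 12.8 Mb, median 4.0 kb), and in WT 1179 of 8539 met its mirror (13.8%, 6.27 Mb, median 4.2 kb). Of the intervals found in 1 genotype alone, the unmarked ones were 11.7% in KO and 30.9% in WT. The KO list thus held more unmarked intervals in number, and the WT list a higher share.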

How the data were processed

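The authors aligned reads with BWA and called enriched intervals with SICER version 1.1 on hg19, per the submitters' processing notes. Per the file headers, 1 interval list was deposited for each antibody and genotype, with a chromosome, start and end and no signal, score or p-value. How SICER was set, whether libraries were scaled and whether the input entered the calling is not stated there. All positions fall on 200-bp windows, and within a list the smallest gap is 800 bp. A list called from more reads can hold more and wider intervals, and that cannot be told apart from more of the mark.

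Overlaps of at least 1 bp, gaps, clusters (gaps of up to 50 kb) and flanks were computed on chromosomes 1 to 22 and X with Python 3.11.15, numpy 2.4.6 and pandas 2.3.3, with Wilson intervals from scipy 1.17.1. bedtools 2.31.1 gave the same 2377 members, and the code was tested on simulated data. The span of a chromosome ends at the last interval of any list. For the raised stretches, the log2 ratio of KO to WT H3K4me3 length (1 kb added to each, bins under 20 kb treated as missing, bins weighted by covered length) was split with a switching probability of 0.001. The zero limit rests on 3 counts.

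The regions named were the 10 widest members, the 5 clusters with the most members, the 3 widest members on H3K36me3 and on MINA of both genotypes or of a single one and on H3K4me3 WT, the 3 farthest from H3K9me3, and the 3 chromosomes at each end with chromosome X. Further chromosomes (5, 7, 16 and, by other gains, 19) and the 10-Mb blocks were chosen after their values were seen. The members, lists and raised stretches were chosen with earlier results of these data known. Coordinates are 1-based. Alternatives changed the overlap, distance, width, chromosomes, merging, cluster gap and H3K4me3 list, or left out the raised stretches. The input library, the merged list and a gene annotation were not used.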

Additional observations from a re-analysis of the deposited data

How the results depend on the processing

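Of 73 values recomputed under 10 alternatives, 57 were counted as unmoved and 16 moved further. Unmoved meant a change within counting error, or of less than 1.5 times for the number and covered length of members. Within that allowance, dropping members with a list of the rule within 5 kb left 1618 members over 8.90 Mb. Merging KO intervals within 5 kb left 1697 over 9.715 Mb. Asking for 50% overlap and using autosomes only moved none, nor did adding chromosome Y, which held no member. The largest group came from leaving out the raised stretches, which left 1222 members over 6.32 Mb, a median width of 3.6 kb, 8.67% on H3K36me3 WT, 2.78% on MINA KO, 18.6% on MINA WT, 10.5% on H3K4me3 WT and 12.8% in clusters of at least 3. Keeping intervals of at least 2 kb raised the median width to 4.6 kb, as the setting must. Dropping members with a list of the rule within 5 kb gave 9.21% on MINA WT, 4.51% on H3K4me3 WT and 18.9% in clusters. Asking that H3K4me3 WT be absent as well gave 9.99% on MINA WT. The share in clusters was 9.55% with KO intervals merged within 5 kb, 11.1% with a gap of 20 kb and 33.7% with a gap of 100 kb. Apart from the settings that change it by their construction, the cause was not tested. No paired analysis was possible because each antibody and genotype has 1 library, and for the same reason there was no replicate to leave out. Depth is unknown and limits what the absence of a call shows.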
